A study of Mus musculus with 9 samples.

Results

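Plod2, Ptgs2, Ripk2, Zc3hav1 and Clu are 5 of the 24736 genes in the deposited table. They were selected on their own levels: in each, the CdxKO libraries departed from WT in one direction and the T/BraKO libraries in the other. The 3 contrasts between the genotypes therefore chose these genes, and their values in them are given as a description, with no test. RNA was sequenced from mouse embryonic stem cells (ESCs) differentiated into caudal epiblast-like cells (CEpiLCs), which resemble the posterior epiblast that feeds the elongating body axis. WT cells were compared with cells lacking T/Bra (T/BraKO) and with cells mutant for all of Cdx1, Cdx2 and Cdx4 (CdxKO), with 3 libraries of each genotype collected at 72 h. Every culture, controls included, received 10 ng/ml bFGF and 5 µM LGK974, an inhibitor of WNT secretion, and from day 2 the GSK3 inhibitor CHIR99021, which activates WNT signalling. Each genotype is represented by 1 line, so an effect of the mutation and a difference between lines cannot be told apart. The titles call the libraries biological replicates and the design text calls them independent, while libraries that bear the same replicate number deviated together.

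CDX proteins and T/BRA are transcription factors that are switched on in the caudal epiblast and are needed for it to make the trunk and tail. The 5 genes come from unrelated pathways. PLOD2 hydroxylates lysines in collagen telopeptides before cross-linking. PTGS2, also called COX-2, is the inducible cyclooxygenase that commits arachidonic acid to prostaglandins. RIPK2 is the kinase that carries signals from the bacterial sensors NOD1 and NOD2 to NF-kB. ZC3HAV1, also called ZAP, binds CpG-rich viral RNA and recruits its degradation. CLU, or clusterin, is a secreted chaperone that also circulates with lipoproteins.

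The libraries held between 25124344 and 34705361 expected counts, and 18902 genes had a count in at least 1 of them. T fell from a mean normalised count of 12243 in WT to 2295 in T/BraKO, and Cdx4 from 118.1 in WT to 1.64 in CdxKO, while Cdx2 kept 1031 of 4199 and Cdx1 271.6 of 536.4 in CdxKO (n = 3 each). The lines also differed outside the targeted genes. Ddx3y, a Y-linked gene, had no count in any CdxKO library against 1727 ± 55.7 (SD, n = 3) in WT, and Hprt had 3938 ± 302.6 in T/BraKO against 21.7 ± 5.81 in WT. The 14 caudal epiblast markers, T, Cdx1, Cdx2 and Cdx4 among them, summed to between 1671 and 2717 TPM in every library. Single markers differed between genotypes at an adjusted p of at most 0.05 by DESeq2. In CdxKO 5 of the 14 were lower than in WT, where 0.358% of all genes tested were. In T/BraKO 2 were higher, where 0.148% of all genes were, and 3 lower, where 0.937% were. Endothelium and blood markers stayed at or below 13.6 TPM, trophoblast and lateral and extraembryonic mesoderm markers at or below 15.5, and neural progenitor and extraembryonic endoderm markers at or below 19.8. Definitive endoderm markers ranged from 16.5 to 139.4 TPM, naive pluripotency markers from 23.9 to 64.0 TPM, and paraxial mesoderm markers from 14.8 to 65.6 TPM in WT and CdxKO against 4.86 to 6.62 TPM in T/BraKO.

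In the annotation of mouse genome build GRCm38 (mm10), each gene is protein-coding and lies on a chromosome of its own. Plod2 spans 92542223 to 92608428 on the plus strand of chromosome 9, and its longest principal transcript has 19 exons. Ptgs2 spans 150100031 to 150108227 on the plus strand of chromosome 1, with 10 exons. Ripk2 spans 16122733 to 16163647 on the minus strand of chromosome 4, with 11 exons. Zc3hav1 spans 38305286 to 38354603 on the minus strand of chromosome 6, with 13 exons, and Clu spans 65968483 to 65981547 on the plus strand of chromosome 14, with 9 exons. No other gene of the table overlapped any of them.

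The bases before the transcription start were read from RefSeq (GRCm38.p6) to look for letters bound by the factors at issue, and 2 of the 5 genes, Ptgs2 and Zc3hav1, matched an entry. Both windows are shown because Ptgs2 had the widest range of levels and Zc3hav1 the tightest T/BraKO libraries. They are printed 5′ to 3′ on the strand of the gene, with the match described below in capitals. The Ptgs2 window is chr1:150099781-150100030 on the plus strand.
Ptgs2: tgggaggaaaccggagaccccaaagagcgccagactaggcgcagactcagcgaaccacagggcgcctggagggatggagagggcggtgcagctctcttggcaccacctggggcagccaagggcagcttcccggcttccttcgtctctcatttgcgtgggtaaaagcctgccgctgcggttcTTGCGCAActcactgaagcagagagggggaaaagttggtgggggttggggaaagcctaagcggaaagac
The Zc3hav1 window is chr6:38354604-38354853 on the minus strand.
Zc3hav1: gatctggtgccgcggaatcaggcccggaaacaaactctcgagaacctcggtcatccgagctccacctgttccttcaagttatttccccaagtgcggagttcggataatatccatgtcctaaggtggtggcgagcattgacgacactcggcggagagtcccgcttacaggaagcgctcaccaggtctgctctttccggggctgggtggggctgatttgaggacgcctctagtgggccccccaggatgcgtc
G and C made up 61.6% of the Ptgs2 window and 58.8% of the Zc3hav1 window, against a median of 52.4% over 32851 promoters. Letters searched on both strands of these 250 bases were TTTATNG for CDX, found in 9.81% of the promoters, AGGTGTG for a T-box site in 5.10%, CTTTGAT for TCF/LEF in 3.21%, TGACGTC for a cyclic AMP response element in 2.78%, and TGACTCA for AP-1 in 4.46%. None of these letter strings was in either window, and TGACGTC and TGACTCA share their first 4 letters. A further pair of strings was chosen after the windows had been read and was searched over 300 bases, of which 50 follow the start. TTGCNNAA, the letters of a C/EBP site, matched once in Ptgs2, 69 bases before the start (the capitals above), and TGACGT, the core of the cyclic AMP response element, matched once in Ptgs2 on the opposite strand, 13 bases after the start. Neither matched in Zc3hav1. The first was in 10.8% and the second in 7.51% of the 32851 windows.

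Of the 5 genes, Ptgs2 moved most. Its normalised counts in replicates 1, 2 and 3 were 139.5, 124.8 and 85.8 in WT, 426.4, 241.1 and 307.6 in CdxKO, and 38.6, 54.0 and 57.4 in T/BraKO. The 3 genotypes did not overlap, and the lowest CdxKO library stood well above the highest WT library. The log2 fold change was 1.48 (SE 0.28) in CdxKO against WT, a fold of 2.79, and -1.21 (SE 0.30) in T/BraKO against WT, a fold of 0.431. Between the mutants the level differed by 6.46-fold. Ptgs2 was also the least abundant and the most variable of the 5, with a coefficient of variation between 20.0% and 28.9% within a genotype.

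Plod2, the most abundant of the 5, moved least. Its normalised counts were 3599, 3811 and 3756 in WT, 4482, 4496 and 4276 in CdxKO, and 2972, 3158 and 3195 in T/BraKO. The spread within a genotype was small, with a coefficient of variation from 2.79% to 3.84%, and no library of one genotype reached into another. The log2 fold change was 0.25 (SE 0.066) in CdxKO and -0.26 (SE 0.067) in T/BraKO, folds of 1.19 and 0.835, so the 2 departures from WT were of nearly the same size.

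Ripk2 had normalised counts of 657.1, 753.5 and 667.5 in WT, 1037, 981.3 and 1004 in CdxKO, and 468.9, 571.5 and 459.2 in T/BraKO. Again the groups did not overlap. T/BraKO replicate 2 lay nearest to WT. The log2 fold change was 0.54 (SE 0.12) in CdxKO and -0.47 (SE 0.12) in T/BraKO, or 1.45-fold and 0.722-fold.

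Zc3hav1 had normalised counts of 721.2, 751.5 and 824.1 in WT, 1007, 920.6 and 988.6 in CdxKO, and 540.6, 561.5 and 560.6 in T/BraKO. The T/BraKO libraries differed among themselves by a coefficient of variation of 2.13%, and all lay below the WT libraries. The log2 fold change was 0.34 (SE 0.096) in CdxKO and -0.47 (SE 0.098) in T/BraKO, or 1.27-fold and 0.724-fold.

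Clu had normalised counts of 873.1, 865.7 and 722.5 in WT, 1504, 1130 and 1136 in CdxKO, and 577.0, 740.1 and 555.2 in T/BraKO. The CdxKO libraries stood above all WT libraries, but T/BraKO replicate 2 was higher than WT replicate 3, so T/BraKO and WT overlapped. The log2 fold change was 0.61 (SE 0.17) in CdxKO and -0.39 (SE 0.17) in T/BraKO, or 1.53-fold and 0.761-fold.

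**Figure D1:**
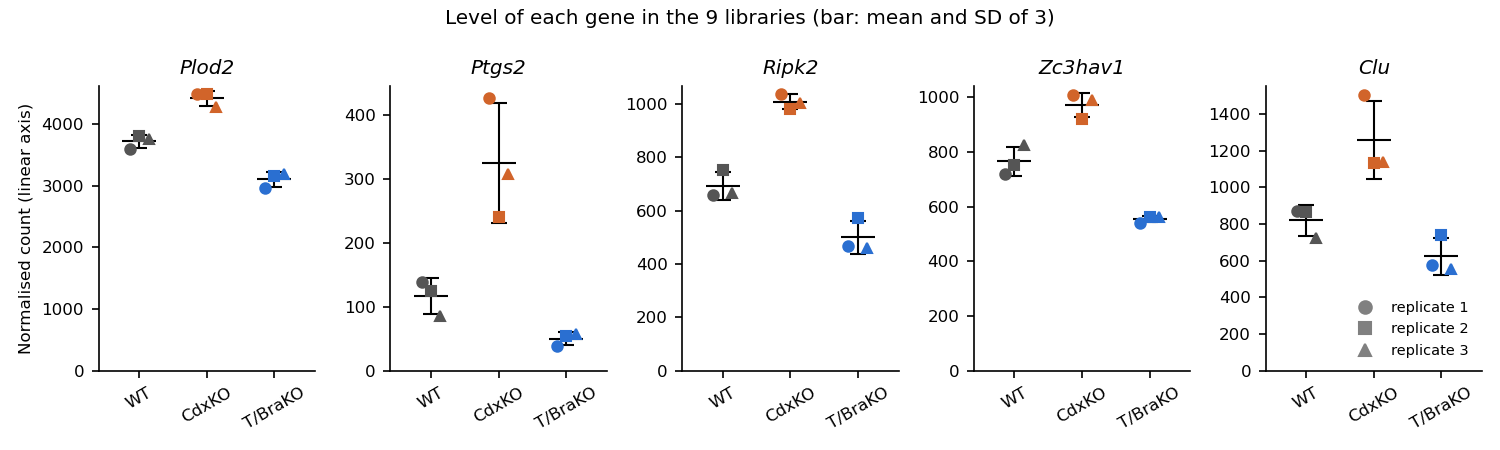
Normalised count (linear axis from 0) of each of the 5 genes in the 9 libraries, with one panel for each gene, one column for each genotype, marker shapes for the replicate number, and bars for the mean and SD of 3 libraries. CdxKO lies above WT in all 5 panels, and T/BraKO lies below WT except for 1 Clu library, T/BraKO replicate 2 at 740.1 against WT replicate 3 at 722.5.

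TPM, which is scaled for transcript length, allows the genes to be ranked against each other. In WT the mean was 72.2 ± 2.55 TPM for Plod2, 32.9 ± 3.93 for Clu, 18.4 ± 1.60 for Ripk2, 10.6 ± 0.620 for Zc3hav1 and 1.85 ± 0.465 for Ptgs2 (SD, n = 3). Each step in this order was larger than the spread of the neighbours on either side. Among genes above 0 TPM in WT, Plod2 was at the 86.3rd percentile and Ptgs2 at the 32.7th. The order was the same in the mutants, with Plod2 at 85.3 ± 3.51 TPM, Clu at 50.2 ± 8.47, Ripk2 at 26.6 ± 0.624, Zc3hav1 at 13.4 ± 0.569 and Ptgs2 at 5.13 ± 1.46 in CdxKO. In T/BraKO, Ptgs2 was at 0.777 ± 0.154 TPM and Plod2 at 58.8 ± 2.38. In bulk RNA, fewer cells with a transcript and less of it in each cell cannot be told apart.

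Libraries with the same replicate number deviated from their genotype means together, so ratios within a number were also taken. In every number and for each of the 5 genes, CdxKO exceeded its WT library and T/BraKO fell short of it. The genes were chosen for these directions, and the share of all genes that keep them in every number was not counted. For Plod2 the log2 ratio of CdxKO to WT ran from 0.19 to 0.32 and that of T/BraKO to WT from -0.28 to -0.23. Ptgs2 was less even: its ratio for CdxKO was lowest in number 2, at 0.95 against 1.61 and 1.84, and its ratio for T/BraKO went from -1.85 in number 1 to -0.58 in number 3. Clu, which overlapped between WT and T/BraKO over all libraries, had ratios of -0.60, -0.23 and -0.38 within the numbers. Ripk2 ranged from 0.38 to 0.66 and from -0.54 to -0.40, and Zc3hav1 from 0.26 to 0.48 and from -0.56 to -0.42.

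**Figure D2:**
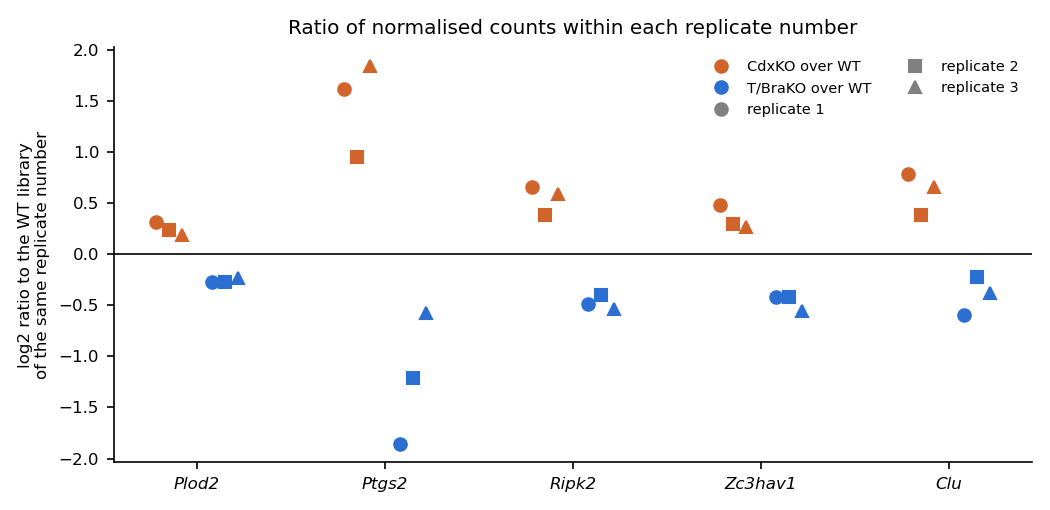
Log2 ratio of the normalised count in each mutant library to the WT library with the same replicate number (y axis), for the 5 genes (x axis). Orange points are CdxKO over WT and all lie above 0, and blue points are T/BraKO over WT and all lie below 0; Ptgs2 has the widest scatter, from 0.95 to 1.84 and from -1.85 to -0.58.

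Calls from the fits across all genes place the 5 on the scale of the table, and nothing is read from them about the 5 genes, since the same contrasts chose them. A call was a Benjamini-Hochberg adjusted p of at most 0.05. By DESeq2, 5 of the 5 were called higher in CdxKO than WT, where 0.335% of all genes tested were called higher, and 4 of 5, all but Clu, were called lower in T/BraKO, where 0.937% were called lower. With the replicate number as a block, 5 of 5 were called in each contrast, where 3.4% of genes were called higher in CdxKO, and 4.85% were called lower in T/BraKO. The quasi-likelihood test of edgeR called none of the 5 in either contrast, where it called 0.0344% of genes higher in CdxKO, and 0.337% of genes lower in T/BraKO. In the direct comparison all 5 were called higher in CdxKO than in T/BraKO by DESeq2 (2.52% of genes), with the block (7.75%) and by edgeR (1.24%).

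Across the table, 7 genes, or 0.0418% of those tested, were called by DESeq2 in opposite directions in the 2 mutants, and 83, or 0.65%, with the block. Both contrasts use the same WT libraries. The 7 were 4 of the 5 genes, without Clu, and Meis2, Vim and Ddx3y. Meis2, a homeobox gene, and Vim, which encodes the intermediate filament vimentin, moved in the same direction as the 5. The mean normalised count of Meis2 was 160.6 ± 41.5 in WT against 485.3 ± 208.5 in CdxKO and 68.1 ± 4.16 in T/BraKO, and that of Vim was 18434 ± 2187, 28456 ± 5760 and 12003 ± 1202 in the same order (SD, n = 3). Ddx3y went the other way, with no count in CdxKO. Zc3hav1 lay just inside the threshold, the larger of its 2 adjusted p-values by DESeq2 being 0.0492, and Clu lay outside it at 0.681. The 7 depended on each library: leaving one out gave from 0 genes, without WT replicate 2, to 15, without CdxKO replicate 2, and at most 2 of the 5 genes were among them. By order alone, all CdxKO libraries were above all WT libraries for 5 of the 5 genes, as for 5.59% of the 12316 genes that averaged 50 or more normalised counts. All T/BraKO libraries were below all WT libraries for 4 of 5, as for 5.38%, and 0.43% of the 12316 genes had both orders.

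**Figure D3:**
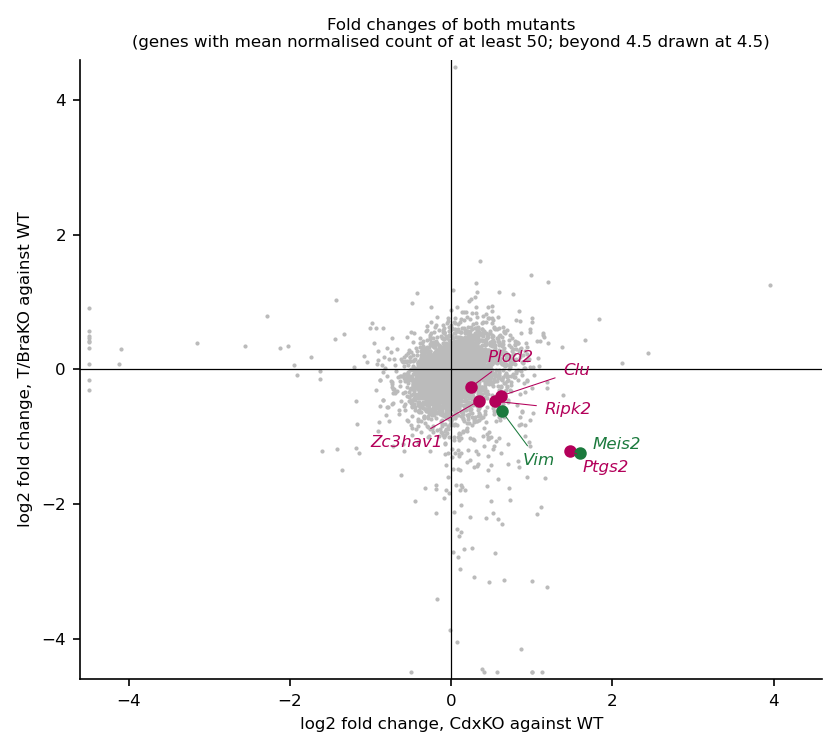
Log2 fold change against WT in CdxKO (x axis) and in T/BraKO (y axis), both from DESeq2, for genes that averaged 50 or more normalised counts (grey), with the 5 genes in magenta and Meis2 and Vim in green. Values beyond 4.5 are drawn at 4.5, and both axes share the WT libraries. The 5 genes lie in the lower right part of the plot, from Plod2 at 0.25 and -0.26 to Ptgs2 at 1.48 and -1.21.

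The levels of the 5 genes over the 9 libraries were alike, as their choice would make them. Pearson's r of the log2 normalised counts ran from 0.89 for Zc3hav1 and Clu to 0.98 for Plod2 and Zc3hav1. With the genotype means removed, r over the 9 libraries had a median of 0.25 over the 10 pairs, and 8 pairs were above 0. Clu with Ripk2 (0.72) and Clu with Ptgs2 (0.71) were the most alike, and Zc3hav1 with Clu (-0.020) the least. These points share 9 libraries and their replicate numbers.

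Other genes followed the same course. The genes most like Ripk2 in level over the 9 libraries, among 12316, were Marveld1 (r = 0.98), Gab1 (0.98), Aldh2 (0.98), Dock11 (0.97) and Pea15a (0.97). Dock11, Marveld1 and Pea15a were also among the 5 genes most like Clu, at 0.98, 0.98 and 0.97, with Pdcl and Fmnl2. Ptgs2 was most like Sgms1 (0.98), Clu itself (0.96), Actr2 (0.96), the secreted protease gene Htra1 (0.96) and Ripk2. Plod2 was most like Zc3hav1, Ripk2 and Ptgs2, then Aldh2 (0.96) and Arfip1 (0.95), and Zc3hav1 was most like Plod2, then Eml6 (0.97), Tmprss2 (0.97), Tpd52l1 (0.96) and Rab1a (0.96).

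To see whether the pathways moved with the genes, 6 lists of partners, 158 genes in all without the 5, were read from the same fits. By DESeq2, 1 of 148 listed genes tested (0.676%) was called in either direction in CdxKO against WT, where 0.693% of all genes tested were. In T/BraKO 10 of 153 (6.54%) were called, against 1.08% of all genes, and in the direct comparison 19 of 146 (13.0%), against 3.48%. With the replicate block the counts were 20 of 129 (15.5%, against 5.31% of all genes), 23 of 123 (18.7%, against 9.68%) and 46 of 141 (32.6%, against 14.6%).

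Of 23 collagen-modifying enzymes, the list around PLOD2, 20 had a positive log2 fold change in CdxKO and 18 a negative one in T/BraKO, both against the same WT libraries. Of these genes, P3h2, a prolyl 3-hydroxylase, was called higher in CdxKO (0.74 on the log2 scale, SE 0.18, adjusted p = 0.0111 by DESeq2), and none was called lower. With the block, 8 of 22 tested were called higher, where 3.4% of all genes tested were. These were Plod3 (0.25), P4ha1 (0.33), P3h2 (0.74), the collagen chaperone gene Serpinh1 (0.26), Loxl2 (0.44), Loxl3, Loxl4 and Bmp1. In T/BraKO none was called by DESeq2 and none by edgeR, while 4 had an unadjusted p under 0.05. With the block Plod1, P4ha1, Loxl2 and Loxl4 were called lower, where 4.85% of all genes tested were. Loxl2, a lysyl oxidase that cross-links collagen, had normalised counts of 1404, 2040 and 1121 in WT, 1961, 2497 and 1649 in CdxKO, and 937.8, 1095 and 839.5 in T/BraKO. P4ha1, a prolyl 4-hydroxylase subunit, had 1899, 2445 and 1688 in WT, 2212, 2914 and 2459 in CdxKO, and 1243, 1510 and 1494 in T/BraKO. Loxl2 and P4ha1 overlapped between CdxKO and WT, but not between T/BraKO and WT. Of the paralogues of Plod2, Plod1 had a log2 fold change of 0.14 (SE 0.097) in CdxKO and -0.23 (SE 0.098) in T/BraKO, and Plod3 had 0.25 (SE 0.11) and -0.013 (SE 0.11). The median log2 fold change of the list was 0.25 in CdxKO and -0.10 in T/BraKO, against -0.0023 and 0 over all genes tested. P3h2 was called in CdxKO in 3 of 9 fits that left out a library, and the call was lost without any one of the WT or CdxKO libraries.

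In the prostaglandin list, Ptgs1, the constitutive cyclooxygenase and paralogue of Ptgs2, fell in T/BraKO. Its normalised counts were 372.4, 288.2 and 235.9 in WT, 793.8, 293.8 and 545.6 in CdxKO, and 21.0, 17.4 and 12.6 in T/BraKO. The T/BraKO libraries were far below all others, while CdxKO replicate 2 lay within the WT range. The log2 fold change in T/BraKO was -4.15 (SE 0.40, adjusted p = 4.02e-22 by DESeq2, 6.4e-45 with the block and 0.00514 by edgeR), and the call held in 9 of 9 fits that left out a library. In CdxKO, the log2 fold change of Ptgs1 was 0.86 (SE 0.34, adjusted p = 0.52), and with the block 0.80 (adjusted p = 0.00394). Ptger4, a receptor for prostaglandin E2, was likewise called in CdxKO with the block (0.81, adjusted p = 0.0149), whereas the unblocked fit to all 9 libraries did not call it. When CdxKO replicate 2 was left out, both Ptgs1 and Ptger4 were called higher in CdxKO by DESeq2 without the block. Pla2g4a, the phospholipase that releases arachidonic acid, had 109.1, 155.7 and 138.9 in WT, 186.8, 183.9 and 181.5 in CdxKO, and 101.5, 107.2 and 93.3 in T/BraKO. It was called in the direct comparison (0.87, SE 0.19, adjusted p = 0.000259 by DESeq2) and in neither mutant against WT. No other gene of the 24 was called against WT by DESeq2, and the list's median log2 fold change was 0.094 in CdxKO and -0.13 in T/BraKO.

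Of 34 genes around RIPK2, those of NOD receptor, RIPK2 and NF-kB signalling, none was called in CdxKO by DESeq2 or edgeR, and 1 had an unadjusted p under 0.05. With the block Ikbkb, a kinase subunit of the NF-kB activating complex, was called lower (-0.24), where 1.91% of genes were. In T/BraKO Ripk3, the kinase of necroptosis, was called lower (-0.60, SE 0.15, adjusted p = 0.00627 by DESeq2, 0.14 by edgeR), in 5 of 9 fits that left out a library. The receptor gene Nod1 was near the floor, with 9.32 to 23.2 normalised counts in every library. Ripk1 had a log2 fold change of 0.096 (SE 0.17) in CdxKO and 0.17 (SE 0.17) in T/BraKO. The medians of the list were 0.035 in CdxKO and 0.014 in T/BraKO. Of 23 inflammatory targets of NF-kB, 18 were tested in CdxKO and 20 in T/BraKO. None was called by DESeq2 or edgeR, with 4 and 0 at an unadjusted p under 0.05. With the block the cytokine genes Csf1 (0.72) and Lif (0.50) and the early response gene Ier3 (0.61) were called higher in CdxKO, where 3.4% were. In T/BraKO these 3 had log2 fold changes of -0.042, -0.034 and 0.21 with the block, and of 0.011, -0.014 and 0.26 without it. The medians of this list were 0.46 in CdxKO and 0.29 in T/BraKO.

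Among the antiviral genes listed with Zc3hav1, calls against WT lay in T/BraKO. Of 33 genes, 7 were called lower in T/BraKO by DESeq2, where 0.937% of all genes tested were, and none higher. A negative log2 fold change was found for 28, and the median of the list was -0.37. In CdxKO 0 of 32 tested were called by DESeq2 and by edgeR, 1 had an unadjusted p under 0.05, and the median was -0.0048. The 7 were Irf1, Parp9, Parp10, Parp12, Parp14, Ifih1 and Isg15. Irf1, an interferon-induced transcription factor, had normalised counts of 1618, 2448 and 1582 in WT, 2243, 1634 and 2297 in CdxKO, and 472.2, 664.1 and 555.2 in T/BraKO. Its log2 fold change in T/BraKO was -1.74 (SE 0.22, adjusted p = 2.82e-12 by DESeq2 and 0.0125 by edgeR). In CdxKO it was 0.13 (SE 0.22, adjusted p = 1 by DESeq2), with the WT and CdxKO libraries mixed.

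The PARP relatives of ZAP, which share its PARP domain, were the largest group among the 7. Parp14 had normalised counts of 193.5, 320.2 and 145.4 in WT, 257.1, 189.3 and 186.2 in CdxKO, and 51.9, 80.6 and 57.4 in T/BraKO. Its log2 fold change was -1.79 (SE 0.33, adjusted p = 1.31e-05 by DESeq2, 0.0597 by edgeR) in T/BraKO and -0.062 (SE 0.32) in CdxKO. Parp10 had -1.49 (SE 0.25), Parp12 -1.37 (SE 0.26) and Parp9 -0.89 (SE 0.20) in T/BraKO. These PARP genes and Irf1 kept their call in 9 of 9 fits that left out a library, whereas Ifih1, a sensor of viral RNA (-1.71, SE 0.40), kept it in 7. Isg15, a ubiquitin-like interferon target, had 24.8, 16.4 and 10.3 normalised counts in WT, 51.4, 30.4 and 23.5 in CdxKO, and 1.10, 3.66 and 1.79 in T/BraKO, which is about the level of the floor of 3 counts. Its call held in 4 of 9 fits, and the fit with the block gave it no adjusted p in this contrast. With the block 11 genes were called lower, where 4.85% of all genes tested were. Among them were Trim25 (-0.36), the ubiquitin ligase that ZAP needs, and Khnyn (-0.44), a nuclease partner of ZAP. Among the 7, edgeR called Irf1 and Parp10. Zc3hav1l, the ZAP-like gene next to Zc3hav1, had log2 fold changes of -0.27 (SE 0.21) in CdxKO and -0.20 (SE 0.21) in T/BraKO, and the former was called lower with the block (adjusted p = 0.00539). In the direct comparison 8 of 31 tested were called higher in CdxKO by DESeq2, where 2.52% of all genes tested were.

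Of 21 clusterin receptors, apolipoproteins and chaperones, 1 was called against WT by DESeq2. This was A2m, a secreted protease inhibitor, lower in T/BraKO (-0.997, SE 0.25, adjusted p = 0.00791 by DESeq2, 0.17 by edgeR) and called in 6 of 9 fits that left out a library. None was called in CdxKO by DESeq2 or edgeR, and 4 had an unadjusted p under 0.05. With the block 5 were called higher in CdxKO, where 3.4% of genes were called higher. Among them were the lipoprotein receptor gene Lrp8 (0.27) and the small heat shock genes Hspb1 (0.84), Hspb8 and Cryab (1.28). In T/BraKO with the block 4 were called lower, among them Lrp8 (-0.54), where 4.85% of genes were called lower, and 2 higher, Hspb1 (0.64) and Hspa1b, where 4.83% were called higher. Lrp8 had normalised counts of 4052, 4799 and 4688 in WT, 5406, 5010 and 5853 in CdxKO, and 2380, 3387 and 3615 in T/BraKO, with no overlap between the genotypes. Hspb1, called higher in both mutants with the block, had 490.6, 548.4 and 396.2 in WT, 836.4, 1088 and 670.6 in CdxKO, and 688.4, 1184 and 480.7 in T/BraKO. The receptor gene Lrp2 had log2 fold changes of 0.20 (SE 0.21) and -0.14 (SE 0.21), and Apoe -0.11 (SE 0.30) and 0.22 (SE 0.30), in CdxKO and T/BraKO. In the direct comparison with the block, where 6.9% of genes were called lower in CdxKO, 1 gene of this list was lower and 9 were higher. The median of the list was -0.059 in T/BraKO against 0.20 in CdxKO.

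**Figure D4:**
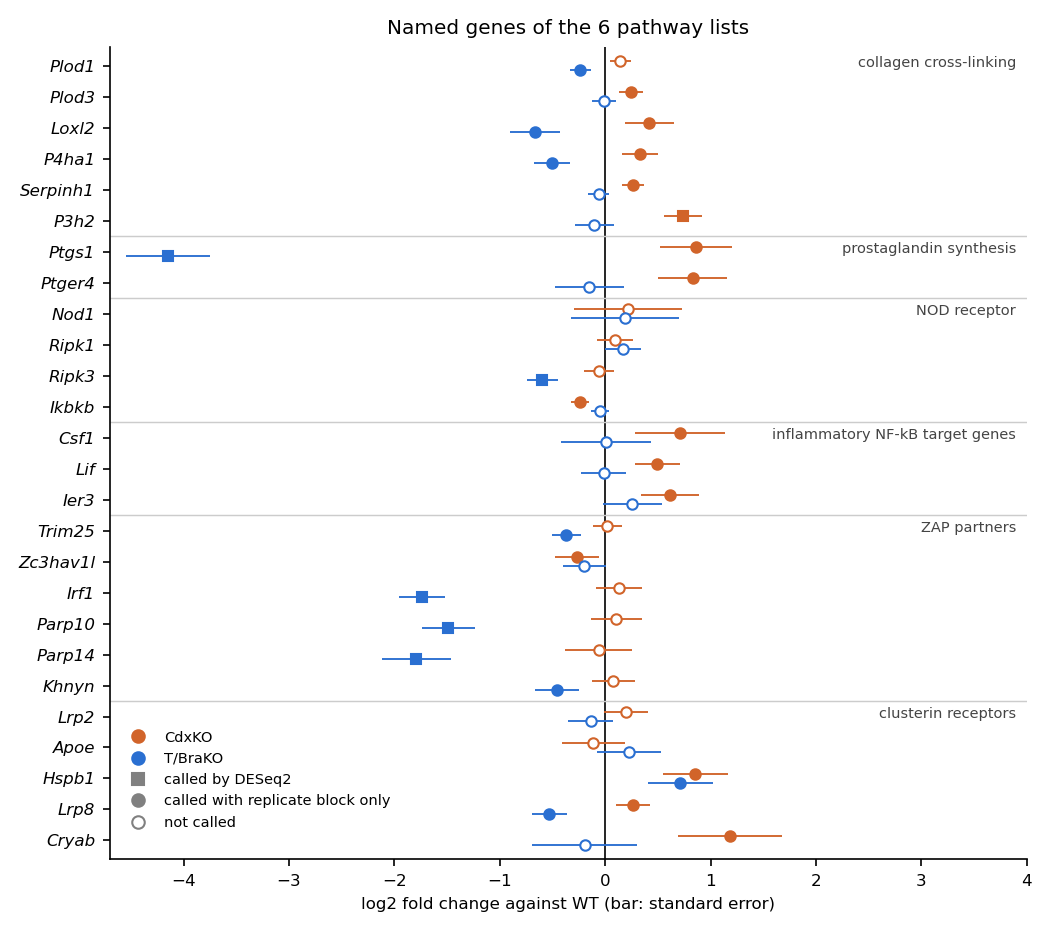
Log2 fold change against WT (x axis, bars are standard errors of the DESeq2 fit to all 9 libraries) of 26 named genes of the 6 pathway lists (y axis), orange for CdxKO and blue for T/BraKO. Squares are called by DESeq2, filled circles with the replicate block only, open circles in neither. Ptgs1 is lowest in T/BraKO at -4.15, and Irf1, Parp10 and Parp14 lie from -1.79 to -1.49 in T/BraKO and from -0.062 to 0.13 in CdxKO.

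Genes beside the 5 on their chromosomes were read from the same fits. The 3 nearest genes on each side that averaged 50 or more normalised counts gave 30 neighbours. Their distance ran from 5239 bases, for Gulo and Clu, to 6292565 bases, for Uchl5 and Ptgs2, so not all were close. In CdxKO none was called by DESeq2 or edgeR, 4 had an unadjusted p under 0.05, and with the block 5 were called lower (D630045J12Rik, Zc3hav1l, Ubn2, Hmcn1 and Ivns1abp) and none higher. These 5 were 16.7% of the 30, where 1.91% of all genes tested were called lower, and D630045J12Rik, Zc3hav1l and Ubn2 all flank Zc3hav1. Hmcn1 and Ivns1abp lie 454297 and 1236250 bases from Ptgs2. In T/BraKO 2 of the 30 (6.67%) were called lower by DESeq2, where 0.937% of all genes were, both on the same side of Clu. These shares of all genes also cover genes under 50 normalised counts, unlike the neighbours. Shares at that minimum were not taken. Scara3, a scavenger receptor gene 14548 bases from Clu, had normalised counts of 122.6, 137.3 and 63.4 in WT, 120.4, 109.8 and 83.7 in CdxKO, and 36.4, 41.2 and 28.7 in T/BraKO. Its log2 fold change was -1.60 (SE 0.35, adjusted p = 0.000874 by DESeq2, 0.11 by edgeR) in T/BraKO and -0.043 in CdxKO. Esco2, a cohesin acetyltransferase gene 134489 bases from Clu, had -0.74 (SE 0.14, adjusted p = 2.2e-05 by DESeq2, 0.0394 by edgeR) in T/BraKO and -0.11 in CdxKO. Both kept the call in 9 of 9 fits that left out a library. Slc9a9, 2061481 bases from Plod2, was called lower in T/BraKO in both fits with the block (adjusted p = 0.0401 by DESeq2) but in no other fit run. Pla2g4a, described above, lies 138741 bases from Ptgs2.

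Markers of fibroblasts were examined because the ESCs were grown on mouse embryonic fibroblast feeders, and PLOD2, PTGS2 and CLU are also made by fibroblasts. By the paper's methods, the feeders were separated from the ESCs before differentiation began. None of the 14 feeder markers was at 0. Their summed level in replicates 1, 2 and 3 was 295.5, 456.0 and 176.8 TPM in WT, 422.3, 625.3 and 264.0 TPM in CdxKO, and 238.3, 579.5 and 138.3 TPM in T/BraKO. This sum followed the replicate number, highest in number 2 and lowest in number 3 of every genotype, and the genotypes overlapped. Within each number CdxKO exceeded WT. Tagln, a smooth muscle actin-binding protein gene, made 33.1% to 76.3% of the sum. Without Tagln, left out after its values were seen, the other 13 markers gave 162.4, 181.4 and 118.2 TPM in WT, 164.1, 205.7 and 128.9 TPM in CdxKO, and 126.4, 137.1 and 91.9 TPM in T/BraKO. The collagens Col1a1, Col1a2 and Col3a1 together gave 34.6, 34.4 and 15.7 TPM in WT, 43.5, 58.7 and 27.1 TPM in CdxKO, and 20.8, 15.1 and 10.4 TPM in T/BraKO. Over the 9 libraries, the log2 levels of the 5 genes were correlated with the log2 sums of these markers. For all feeder markers r was 0.27 to 0.57, for the 13 without Tagln 0.50 to 0.67, and for the collagens 0.69 to 0.80. These r include the genotype means that chose the 5 genes, so any sum with the same order of genotypes would correlate with them. No r with those means removed was taken. Within each number the sums of the collagens and of the 13 markers were highest in CdxKO, then WT, then T/BraKO. The 5 genes, chosen for their directions, had the same order. Col3a1 by itself did not, with log2 fold changes of -0.35 (SE 0.46) in CdxKO and -0.15 (SE 0.46) in T/BraKO.

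Single feeder markers moved in different directions. Of the 14, 4 had a negative log2 fold change in CdxKO and 4 a positive one in T/BraKO. Postn (-2.58, SE 0.74, adjusted p = 0.0491), Pdgfrb (-0.91, SE 0.26, adjusted p = 0.0464) and Mmp2 (-0.54, SE 0.13, adjusted p = 0.00466) were called lower in T/BraKO by DESeq2, and none by edgeR. DESeq2 called 0.937% of all genes tested lower in T/BraKO. Postn and Pdgfrb each kept the call in 3 and Mmp2 in 8 of 9 fits that left out a library. In CdxKO none was called by DESeq2 or edgeR, with 4 and 3 at an unadjusted p under 0.05. Col1a1, the main fibrillar collagen, had normalised counts of 1202, 1532 and 626.5 in WT, 2010, 2952 and 1377 in CdxKO, and 729.2, 604.5 and 353.4 in T/BraKO. With the block Col1a1, Col1a2 and Acta2 were called in both mutants, higher in CdxKO but lower in T/BraKO, and Thy1 was lower in CdxKO. Of all genes tested, the block called 3.4% higher and 1.91% lower in CdxKO, and 4.85% lower in T/BraKO. Without the block, the log2 fold change of Thy1 was -0.74 (SE 0.23) in CdxKO and 0.46 (SE 0.23) in T/BraKO. The median log2 fold change of the markers was 0.38 in CdxKO and -0.31 in T/BraKO. The part of fibroblasts in the levels of the 5 genes was not tested. Macrophage markers, which would accompany RIPK2 and PTGS2 in immune cells, summed to between 9 and 27.5 TPM, with at least 4 of 8 at or under 3 counts in every library of each genotype.

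**Figure D5:**
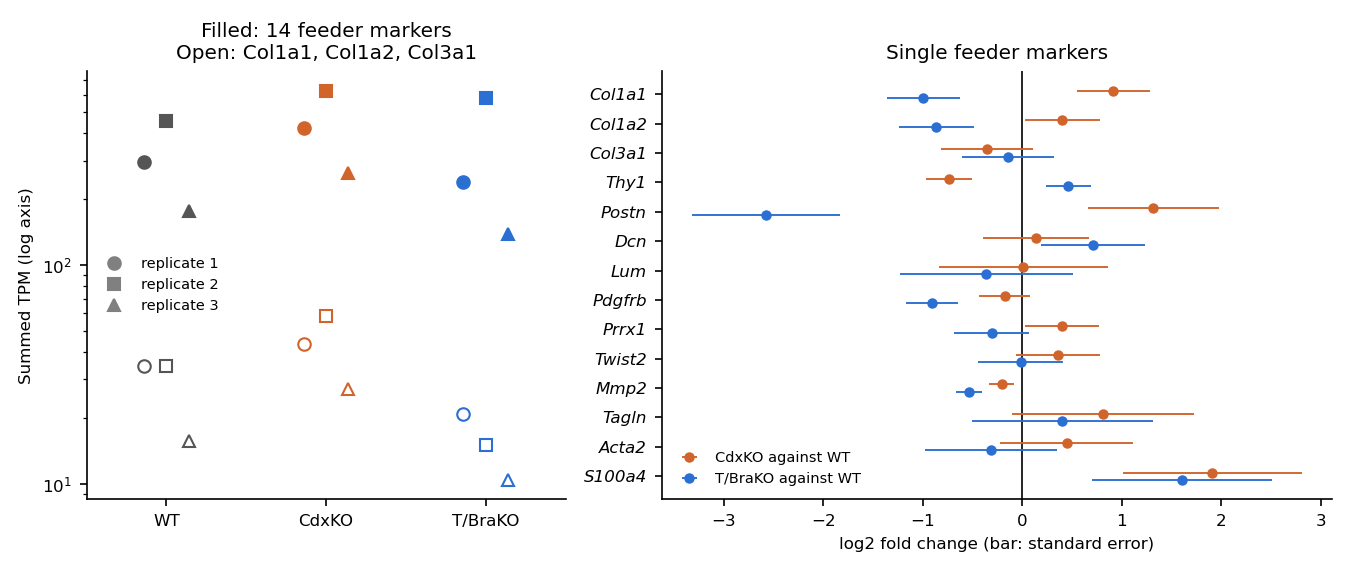
Left, summed TPM (log axis) of the 14 feeder markers (filled) and of 3 collagens (open) in each library by genotype and replicate number. Right, log2 fold change against WT of each marker with its standard error from DESeq2. The sums of T/BraKO span 138.3 to 579.5 TPM and those of WT 176.8 to 456.0 TPM. Col1a1, Col1a2 and Postn lie right of 0 in CdxKO and left of 0 in T/BraKO, and Thy1 lies the other way.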

How the data were processed

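Poly(A) RNA of 9 cultures was sequenced in single-end runs from stranded libraries, and the authors had the reads trimmed with cutadapt 1.16, and aligned and quantified with STAR 2.5.2a and RSEM 1.3.0 on RefSeq genes of mm10. The authors deposited gene-level expected counts, RSEM's estimates that need not be whole, and TPM values, which are scaled for transcript length within a library. Ribosomal Rn45s held between 0.343% and 4.21% of a library's counts, the most in CdxKO replicate 1. Samples were grouped by the labels, and every sample column of the table was matched by name.

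Expected counts were rounded and fitted across all genes in R 4.3.3 with the Wald test of DESeq2 1.42.0, genotype as the only term, all 9 libraries, default size factors, unshrunken fold changes and Benjamini-Hochberg adjustment. Normalised counts are counts divided by size factors. TPM was described and not tested. The alternatives were replicate number as a block, TMM factors, a minimum of 10 counts in 3 libraries, edgeR 4.0.16 (quasi-likelihood, with and without the block), fits to the 6 libraries compared, and each library left out. The fits were also run on counts simulated with known changes in CdxKO against WT. Those changes were larger than those of Plod2, Ripk2, Zc3hav1 and Clu. No effect of replicate number was simulated, so that run does not bear on the pairing.

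Deviations from genotype means correlated between libraries of the same replicate number at r of 0.53 to 0.81 in 9 pairs (12316 genes), so the numbers pair the libraries. In 18 pairs of different number r averaged -0.34. Deviations from a mean cancel within a genotype, so this negative average largely follows from the same-number values. The replicate numbers come from the library titles, and what they share is not stated in the sources used here. Replicates differed by at least 31.7 times sampling noise (chi-square per degree of freedom), so none was a duplicate.

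The 5 genes, the pathway and marker lists and the tests were chosen with earlier results of these data known. Beside the 5 genes, the text names fixed paralogues and partners, up to 4 genes per list with the smallest adjusted p in either mutant, the 5 genes most like each in Pearson's r of log2(normalised count + 1), genes called in opposite directions, called neighbours, and 6 genes that check the lines. Further called genes of the lists, Pla2g4a among them, were named after their values were seen. A pair of listed genes entered the counts, but their own values are not reported here. Neighbours and positions come from GENCODE M21, which held 24204 of the 24736 symbols. Nothing in the counts separates fractional reads shared between genes, which touched between 3.75% and 4.00% of genes in a library.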

Additional observations from a re-analysis of the deposited data

Results flagged for a closer look

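The departures of the 2 mutants from WT differed by the direct test (DESeq2, CdxKO against T/BraKO, adjusted p of at most 0.05) for 19 of the 158 listed genes, all 19 higher in CdxKO. They were 13.0% of the 146 listed genes tested, where 2.52% of all genes tested were called higher. Of these, 16 had a positive log2 fold change in CdxKO and a negative one in T/BraKO, both against the same WT libraries. A choice by the difference between the mutants favours such signs, and their share among all genes so called was not counted. Of the 19, only P3h2 was called in CdxKO against WT by DESeq2. Some CdxKO values were smaller than their SE, such as 0.13 (SE 0.22) for Irf1 and 0.11 (SE 0.24) for Parp10. With the replicate block these 19 were called, where 7.75% of all genes were called higher, and by edgeR 11 were, where 1.24% were.

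Among the collagen-modifying enzymes the log2 difference was 0.38 for Plod1, 0.84 for P4ha1, 0.84 for P3h2, 0.36 for Fkbp10, 0.33 for Serpinh1 and 1.09 for Loxl2. Serpinh1 kept the call in 2 of 9 fits that left out a library, Fkbp10 in 6 and Plod1 in 7.

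In the prostaglandin list Ptgs1 differed by 5.01, the largest value of the 19, and Pla2g4a by 0.87. Ripk3 differed by 0.54, in 5 of 9 such fits.

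The antiviral genes differed by 1.08 for Parp9, 1.59 for Parp10, 1.56 for Parp12, 1.73 for Parp14, 1.84 for Ifih1 and 1.87 for Irf1. Isg15 differed by 3.97, a fitted value that depends on T/BraKO libraries with few counts.

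Of the genes listed with Clu, the receptor gene Lrp8 differed by 0.79 and A2m by 0.97, the latter called in 7 of 9 fits.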

How the results depend on the processing

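The 15 fold changes of Plod2, Ptgs2, Ripk2, Zc3hav1 and Clu kept their direction under every alternative run, and each of 240 alternative values lay within 1 SD between replicates of the reported one. These directions in the same libraries chose the genes, so keeping them is a description and not a test. Counts of calls depended far more on the test. Of the fits with TMM, with the count minimum and to 6 libraries, one moved a count by over 1.5 times: the 6-library fit called 2 listed genes in CdxKO where the reported count is 1.

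With the replicate block the pairing raised the genes called higher and lower to 471 and 265 in CdxKO, to 617 and 620 in T/BraKO and to 1157 and 1030 in the direct comparison, and those called in opposite directions to 83. The block also gave 20, 23 and 46 listed genes and 5 and 8 neighbours in CdxKO and the direct comparison. By edgeR the calls were 5 and 11, 7 and 49, and 181 and 56, with 0 in opposite directions, 0, 3 and 11 listed genes, and 1 neighbour in T/BraKO. By edgeR with the block they were 411 and 252, 625 and 757, and 1484 and 1240, with 82 in opposite directions, 21, 26 and 51 listed genes, and 3, 4 and 8 neighbours. The cause of these differences was not tested.

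Leaving out a library gave 20 to 76 higher and 33 to 64 lower in CdxKO, 15 to 29 with 103 to 186 in T/BraKO, and 257 to 474 and 96 to 156 in the direct comparison. It gave 0 to 15 genes in opposite directions, 0 to 2, 6 to 12 and 15 to 29 listed genes, and 0, 2 and 3 to 4 neighbours. The opposite calls were 2 without CdxKO replicate 1, T/BraKO replicate 1 or WT replicate 3, 1 without WT replicate 1 or T/BraKO replicate 3, 3 without T/BraKO replicate 2, 0 without WT replicate 2, 6 without CdxKO replicate 3 and 15 without CdxKO replicate 2.

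For 38 genes of the lists, neighbours and feeder markers, all those called against WT among them, 16 of 76 fold changes against WT were called. Of their 239 alternative values with an adjusted p, 47 lost the call, and 1 more had none. Of 900 alternative values of the other 60, 51 gained a call, and no call reversed. With 3 libraries per genotype and Isg15 and Nod1 at few counts, small changes of such genes were not detectable at this depth.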
